A study of Mus musculus with 40 samples.

Results

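The 8 genes described here encode the mouse enzymes that write DNA methylation (Dnmt1, Dnmt3a and Dnmt3b), the co-factors Dnmt3l and Uhrf1, and the enzymes that oxidise methylated cytosine (Tet1, Tet2 and Tet3). They were taken from the count table by gene symbol, 8 of 26906 genes, and all 8 were among the 16878 genes with enough counts to be tested. The samples were epiblast-like aggregates of the CGR8 mouse embryonic stem cell line (strain 129), grown without serum in N2B27 with Activin-A, Fgf2 and KSR. One arm was untreated and the other received XAV939, a tankyrase inhibitor that dampens Wnt signalling, from 0 to 72 h. Aggregates of each arm were harvested at days 3, 4, 5, 6 and 7, so the inhibitor had been withdrawn by the later harvests, and each of the 10 groups had 4 poly(A) RNA libraries. The titles of the untreated samples carry the words "no matrigel" and those of the treated samples do not mention it. Every library came from 1 cell line, and whether the 4 replicates of a group were separate experiments is not stated in the labels, so the p-values measure the spread between these libraries.

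Methylation of cytosine in CG dinucleotides is copied after replication by Dnmt1, which Uhrf1 guides to hemimethylated DNA. It is laid down anew by Dnmt3a and Dnmt3b, which the catalytically inactive Dnmt3l stimulates, and it is removed through oxidation by the Tet enzymes. When the epiblast leaves the naive state in the mouse embryo, the genome gains methylation, and Dnmt3b is a classical marker of the primed epiblast. Methylation itself was not measured here: the values are RNA levels.

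Total counts ran from 30197759 to 44086019 per library (median 35737152). Levels are given in CPM, which is counts scaled to library size after normalisation by trimmed means of M values, and levels of different genes are compared only as CPM per kilobase of exon. The summed level of 10 primed epiblast markers was 2413 to 2969 CPM over the 8 libraries of day 3 and 24.5 to 68.8 CPM over those of day 7, while 9 markers of naive stem cells summed to 64.2 to 148 CPM at day 3. Neural progenitor markers summed to 267 to 959 CPM at day 7, streak and mesoderm markers to 107 to 269.8 CPM and endoderm markers to 155 to 580.2 CPM. At day 3 the same sums were 275 to 321, 7.67 to 13.5 and 772 to 1059 CPM. The endoderm list includes the epithelial genes Epcam and Cldn6, and its sum was higher at day 3 than at day 7, so it does not stand for endoderm alone. The neural progenitor sum of day 3 lay within its range at day 7, so that list may not stand for neural progenitors alone either. In such bulk RNA fewer cells of a type and less RNA per cell cannot be told apart. Trophoblast markers stayed at or under 3.54 CPM in sum in every library, and 2 of 7 were at 0 throughout each group of day 3. In 1 library, day 6 untreated library 3, long transcripts were under-represented. Its deviation from the mean of its group fell by 0.37 on the log2 scale for each doubling of transcript length, against a range of -0.09 to 0.17 over the other 39. That mean includes the library itself, and the 0.17 belongs to library 1 of the same group, so these slopes are not independent. Day 4 untreated library 1 stood apart in its streak and mesoderm markers, at 1070 CPM in sum against 96.9 to 164 CPM in the other 3 of its group.

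**Figure D1:**
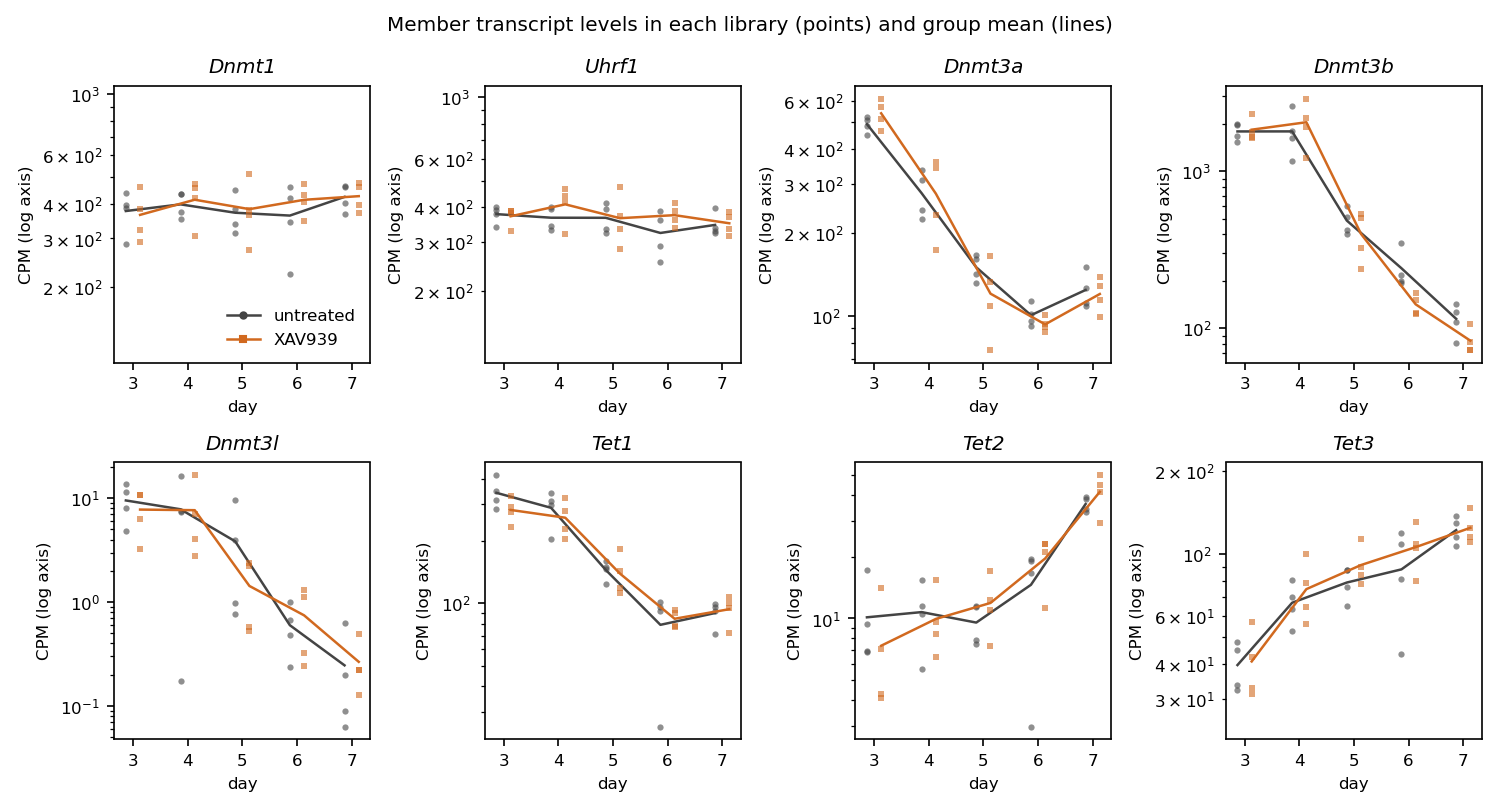
CPM (log axis) of each of the 8 genes against day, with a point for each library and a line through the mean of each group of 4 (grey circles untreated, orange squares XAV939). Dnmt1 and Uhrf1 run level, Dnmt3a, Dnmt3b, Dnmt3l and Tet1 descend, and Tet2 and Tet3 climb, with day 6 untreated library 3 lowest of its group for Tet1 at 25.5 CPM and for Tet2 at 2.97 CPM.

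From day 3 to day 7 the genes of this machinery went 3 ways. Dnmt3a, Dnmt3b, Dnmt3l and Tet1 fell, Tet2 and Tet3 rose, and neither Dnmt1 nor Uhrf1 passed the test. In untreated aggregates 6 of the 8 were called at an edgeR adjusted p under 0.05, 2 higher and 4 lower. Over all tested genes 67.2% were called in the same comparison, 34.7% higher and 32.6% lower. In XAV939 aggregates the same 6 were called in the same directions, beside 70.9% of all tested genes (36.8% higher and 34.1% lower). A share of 6 in 8 was therefore near the background of each arm.

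Among the maintenance genes, Dnmt1 (chr9:20907209-20959888 in mm10, minus strand) was at 377 ± 64 CPM at day 3 and 424 ± 48 CPM at day 7 in untreated aggregates (SD, n = 4). With XAV939 it was at 365 ± 75 and 427 ± 51 CPM. The libraries overlapped at every day and the log2 difference of day 7 from day 3 was 0.17 (SE 0.18, edgeR adjusted p = 0.421) untreated and 0.22 (SE 0.18, adjusted p = 0.276) with XAV939. Its lowest library was day 6 untreated library 3, at 223 CPM. The sign of these differences depended on the treatment of transcript length: with offsets for length and GC content, an alternative chosen after seeing the data, they were -0.31 (edgeR adjusted p = 0.00506) and -0.36 (adjusted p = 0.00122). With no offsets and without day 3 untreated library 3, the untreated difference was 0.05.

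Uhrf1 (chr17:56303321-56323486, plus strand), the reader of hemimethylated CG sites, was at 378 ± 28 CPM at day 3 and 346 ± 34 CPM at day 7 untreated, and at 372 ± 29 and 351 ± 32 CPM with XAV939. The log2 difference was -0.13 (SE 0.13, edgeR adjusted p = 0.402) untreated and -0.08 (SE 0.13, adjusted p = 0.588) with XAV939. The length and GC offsets made both a call, at -0.31 (edgeR adjusted p = 0.00743) and -0.29 (adjusted p = 0.0111). Over the 40 libraries log2 levels of Dnmt1 and Uhrf1 had a Pearson correlation of 0.77, which is a description across libraries that share days, arms and RNA quality.

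Promoter windows from 250 bases before to 50 bases after each start were read from RefSeq (GRCm38.p6), and all 8 genes matched, with 15 windows. The 1 window of Tet1 lies 7310 bases from the nearest start that GENCODE gives for the gene, so the GENCODE starts of Tet1 were not searched. They were searched on both strands for 4 short motifs. The E2F-type word TTTCGCGC, whose factors drive S phase genes, was present in 0.323% of the 32851 windows of the whole table. Of the 15 windows, 1 of the 3 of Dnmt1 and 1 of the 2 of Uhrf1 held it. These 2 stretches are shown because the word is rare over all windows and both maintenance genes have it. Each of the 2 windows holds 33 CG dinucleotides, more than 91.4% of all windows, and the word itself contains CG. Its share among windows as rich in CG was not counted. The Dnmt1 match lies inside an annotated exon. Both are printed along the gene's own strand with the word in capitals, and the Dnmt1 match reads as its reverse complement. The Dnmt1 stretch lies at chr9:20952824-20952853 (minus strand) and that of Uhrf1 at chr17:56304098-56304165 (plus strand).
Dnmt1: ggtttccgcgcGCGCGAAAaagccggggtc
Uhrf1: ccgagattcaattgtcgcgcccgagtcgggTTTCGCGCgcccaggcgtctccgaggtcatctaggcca
The E2F-type word lies in no window of the other 6 genes. The octamer word ATTTGCAT, bound by Oct4-type factors, was in 1.74% of all windows and in 0 of the 15. The TCF-type word CTTTGAAG was in 1.66% of all windows and in 1 of the 15, at the upstream start of Dnmt1. The E-box CACGTG was in 7.15% of all windows and in 2 of the 15, 1 of Dnmt3a and 1 of Dnmt3l. A match is a description of letters and not of binding. The windows differed in CG content, with 57 CG dinucleotides in that of Tet2 and 30 in that of Dnmt3b against 3 to 6 in the 3 windows of Dnmt3l.

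Of the de novo methyltransferases, Dnmt3b (chr2:153649450-153687730, plus strand) was the most abundant of the 8 genes per kilobase at days 3 and 4, at 415 ± 51 CPM per kb in untreated aggregates at day 3, with Uhrf1 next at 103 ± 8 CPM per kb. In untreated libraries 1 to 4 it stood at 1995, 1671, 1549 and 1973 CPM at day 3, at 1165, 1796, 2604 and 1627 CPM at day 4, and at 400.3, 606, 426 and 513 CPM at day 5. It stood at 218, 352, 194 and 201 CPM at day 6 and at 81.1, 126, 144 and 109 CPM at day 7. The level was thus held through day 4, with a spread between libraries that was widest on that day, and no library of day 5 reached the lowest of day 4. From day 3 to day 7 the log2 difference was -3.96 (SE 0.28, edgeR adjusted p = 2.42e-14).

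With XAV939, Dnmt3b stood at 2309, 1627, 1786 and 1653 CPM at day 3, at 1916, 2175, 2910 and 1226 CPM at day 4, and at 535, 323, 503 and 238 CPM at day 5. It stood at 124, 151, 169 and 125 CPM at day 6 and at 73.1, 81.8, 106 and 72.8 CPM at day 7. Again the level held to day 4 and every later step was downward, to a log2 difference of -4.46 (SE 0.28, edgeR adjusted p = 2.61e-15) over the 5 days. In untreated libraries the primed epiblast marker sum was also lower at day 5 (958 to 2165 CPM) than at day 4 (2184.9 to 3503 CPM). Within day 4, untreated library 1 had the highest sum (3503 CPM) and the lowest Dnmt3b (1165 CPM) of its group. From day 5 to day 7 the untreated mean sum went from 1548 to 44.8 CPM, and mean Dnmt3b from 486 to 115 CPM. The part of these cells in the fall of Dnmt3b was not tested.

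Dnmt3a (chr12:3806007-3914443, plus strand), the other de novo enzyme, was already lower at day 4. Untreated libraries stood at 512, 449.5, 487 and 524 CPM at day 3, at 225, 309, 336 and 241 CPM at day 4, and at 160, 166, 131 and 141 CPM at day 5. They stood at 113, 92.1, 96.0 and 101 CPM at day 6 and at 149.8, 112, 109 and 126 CPM at day 7. Neighbouring days did not overlap up to day 6, and day 7 overlapped with day 6. The log2 difference of day 7 from day 3 was -1.99 (SE 0.19, edgeR adjusted p = 2.95e-11) untreated and -2.17 (SE 0.19, adjusted p = 4.27e-12) with XAV939, where the mean went from 539.8 ± 62.2 to 119.9 ± 17.2 CPM. The counts do not separate the long Dnmt3a isoform from the shorter one that starts inside the gene.

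Dnmt3l (chr10:78041947-78063622, plus strand), which has no catalytic activity, was low throughout and the most scattered of the 8. It stood at 4.86, 13.6, 11.5 and 8.07 CPM in untreated libraries 1 to 4 at day 3 and at 0.173, 16.2, 7.38 and 7.50 CPM at day 4. At day 5 the values were 0.777, 9.65, 0.989 and 3.95 CPM, and at day 7 they were 0.0893, 0.634, 0.0636 and 0.199 CPM. The low value of day 4 belonged to library 1, the library with the high streak markers, and library 2 had the highest value on each of these days. The log2 difference of day 7 from day 3 was -5.22 (SE 0.94, edgeR adjusted p = 9.61e-06) untreated and -4.85 (SE 0.93, adjusted p = 2.36e-05) with XAV939, where the mean went from 7.76 ± 3.69 to 0.266 ± 0.157 CPM. At day 7 these untreated values rested on 2 to 26 counts per library. Dnmt3c, the tandem copy of Dnmt3b that acts in the male germ line, did not exceed 0.377 CPM in any library, against 72.8 to 2910 CPM for Dnmt3b, and how reads shared by the copies were counted is not stated. Antisense transcripts overlap the spans of Dnmt3a and Dnmt3b but share no exon bases with them, and Dnmt3bos did not exceed 0.919 CPM.

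Tet1 (chr10:62804570-62908996, minus strand), the main Tet enzyme of embryonic stem cells, fell. In untreated libraries it stood at 286, 416, 317 and 347 CPM at day 3, at 205, 297 and 342 CPM in libraries 1 to 3 and 311 CPM in library 4 at day 4, and at 124, 146, 150.1 and 159.98 CPM at day 5. At day 6 the values were 101.9, 91.6, 25.5 and 96.3 CPM, and at day 7 they were 95.9, 71.4, 99.9 and 92.2 CPM. The libraries of the last 2 days overlapped and all lay below every earlier library. The log2 difference of day 7 from day 3 was -1.93 (SE 0.24, edgeR adjusted p = 1.85e-08) untreated and -1.59 (SE 0.24, adjusted p = 5.5e-07) with XAV939, where the mean went from 282 ± 40 to 93.8 ± 15.3 CPM.

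Tet2 (chr3:133463679-133545139, minus strand) rose late. It stood at 6.92, 17.3, 6.84 and 9.45 CPM in untreated libraries at day 3, at 7.53, 11.5, 7.86 and 11.3 CPM at day 5, and at 19.6, 19.05, 2.97 and 16.7 CPM at day 6. At day 7 it reached 32.9, 34.4, 38.1 and 39.2 CPM. All 4 libraries of day 7 lay above every earlier untreated library. With XAV939 it stood at 4.29, 14.0, 4.08 and 7.06 CPM at day 3 and at 29.3, 44.8, 41.5 and 50.003 CPM at day 7. The log2 difference was 1.83 (SE 0.41, edgeR adjusted p = 0.000181) untreated and 2.49 (SE 0.42, adjusted p = 2.98e-06) with XAV939.

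Tet3 (chr6:83362373-83459084, minus strand), the Tet enzyme known from the zygote and from neural cells, rose early. It stood at 32.3, 33.6, 47.95 and 45.1 CPM in untreated libraries at day 3, at 80.5, 52.6, 70.2 and 63.6 CPM at day 4, and at 129.7, 107, 115 and 137 CPM at day 7. The libraries of day 4 lay above all of day 3. The log2 difference of day 7 from day 3 was 1.62 (SE 0.23, edgeR adjusted p = 1.07e-07) untreated and 1.60 (SE 0.23, adjusted p = 1.17e-07) with XAV939, where the mean went from 40.9 ± 11.8 to 124.5 ± 15.9 CPM.

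On the scale of CPM per kb, the order of the 8 genes at day 3 untreated was Dnmt3b (415), Uhrf1 (103), Dnmt1 (59.8), Dnmt3a (49.8), Tet1 (23.7), Dnmt3l (3.56), Tet3 (3.38) and Tet2 (1.10). At day 7 it was Uhrf1 (94.3), Dnmt1 (67.3), Dnmt3b (26.6), Dnmt3a (12.5), Tet3 (10.4), Tet1 (6.25), Tet2 (3.93) and Dnmt3l (0.0923). Of the neighbours in this order, Dnmt1 and Dnmt3a overlapped between libraries at day 3, as did Dnmt3l and Tet3, and Dnmt3a and Tet3 overlapped at day 7.

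The order of the falls and rises differed between the genes (the plot of changes at each step). From day 3 to day 4 in untreated aggregates, Dnmt3a fell by 0.83 on the log2 scale (SE 0.18, edgeR adjusted p = 0.000562) and Tet3 rose by 0.75 (SE 0.22, adjusted p = 0.00853), so 2 of the 8 were called beside 32.7% of all tested genes. Dnmt3b gave a log2 difference of 0.00 at that step, with a 95% interval of -0.50 to 0.50. From day 4 to day 5, Dnmt3b fell by 1.89 (SE 0.25, adjusted p = 2.12e-06), Tet1 by 0.99 and Dnmt3a by 0.89, which made 3 calls beside a background of 18.7%.

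From day 5 to day 6 untreated, 4 of the 8 were called beside 19.8% of all genes. Dnmt3b fell by 1.01, Tet1 by 0.88, Dnmt3a by 0.58 and Dnmt3l by 2.68 on the log2 scale. Without day 6 untreated library 3, the library short of long transcripts, the Tet1 difference was -0.59 and still passed the test (edgeR adjusted p = 0.0144). The fall of Dnmt3l depended on day 5 untreated library 2, without which the log2 difference was -1.67 (edgeR adjusted p = 0.192), and its call was also lost without day 6 untreated library 1 (-2.41, adjusted p = 0.068). The call of Dnmt3a was lost without day 5 untreated library 2 (adjusted p = 0.0699) or day 6 untreated library 2 (adjusted p = 0.0574). Without day 5 untreated library 2 the step had 2 calls.

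From day 6 to day 7 untreated, Dnmt3b fell by 1.07 (SE 0.25, edgeR adjusted p = 0.00393) and Tet2 rose by 1.31 (SE 0.40, adjusted p = 0.0277), 2 calls beside a background of 12.2%. The Tet2 call rested in part on day 6 untreated library 3, the library short of long transcripts: without it the log2 difference was 0.97 (edgeR adjusted p = 0.119). It was also lost without day 7 untreated library 1, 3 or 4, at adjusted p from 0.0504 to 0.0624. With both libraries that stood apart left out, Tet2 instead passed the test one step earlier, from day 5 to day 6, with a log2 difference of 0.95 (adjusted p = 0.0404).

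**Figure D2:**
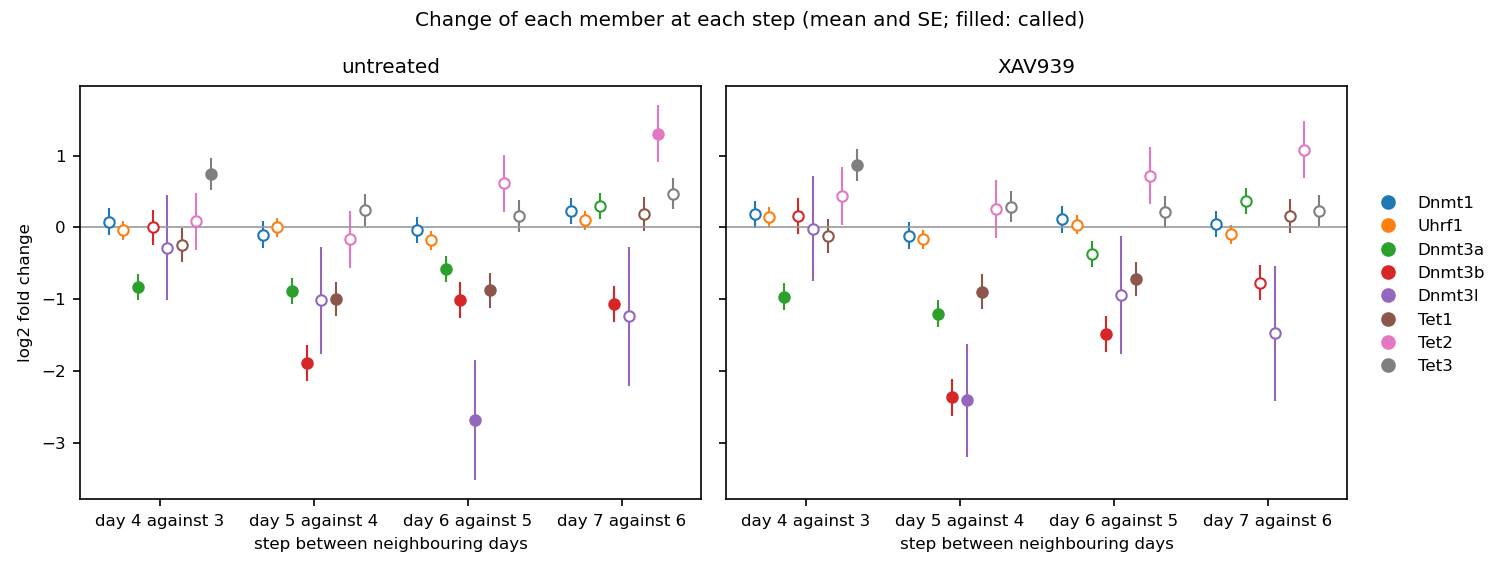
Log2 fold change of each gene (vertical axis) at each of the 4 steps between neighbouring days (horizontal axis), in untreated (left) and XAV939 (right) aggregates, with bars of 1 SE and filled points where the edgeR adjusted p was under 0.05. Dnmt3a is the filled point below 0 at the first step in both panels (-0.83 and -0.96) and Dnmt3b the lowest filled point of the second untreated step (-1.89).

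With XAV939 the first step called Dnmt3a (-0.96, SE 0.18, edgeR adjusted p = 8.3e-05) and Tet3 (0.87, SE 0.22, adjusted p = 0.00221), 2 calls beside a background of 38%. The second step called 4 genes beside 31% of all genes: Dnmt3b (-2.36), Dnmt3l (-2.41), Dnmt3a (-1.20) and Tet1 (-0.89). The Dnmt3l call was lost without day 4 XAV939 library 2 (-1.69, adjusted p = 0.128), day 5 XAV939 library 3 (adjusted p = 0.0612) or day 5 XAV939 library 4 (adjusted p = 0.0691). The third step called 2, Dnmt3b (-1.49, SE 0.25, edgeR adjusted p = 5.18e-05) and Tet1 (-0.72, SE 0.24, adjusted p = 0.0314), beside a background of 17%. Leaving out any of 5 of its 8 libraries (day 5 XAV939 library 1 or 3, day 6 XAV939 library 2, 3 or 4) ended the Tet1 call, at adjusted p from 0.0563 to 0.158. The last step called none of the 8, beside 7.16% of all genes. At an unadjusted p under 0.05 there were 2, Dnmt3b (-0.77, edgeR adjusted p = 0.0515) and Tet2 (1.08, adjusted p = 0.102). DESeq2 called 1 (Dnmt3b, adjusted p = 0.0333), beside 8.44% of all genes it tested. Dnmt3b passed the test at this step without day 6 XAV939 library 1 (adjusted p = 0.0479) or day 7 XAV939 library 3 (adjusted p = 0.031).

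Same-numbered XAV939 libraries of days 4 and 5, 5 and 6, and 6 and 7 deviated together, and a fit of only the 8 libraries compared that takes this number as a block gave 5 calls at the last step, where it called 28.6% of all 15176 genes tested. These were Dnmt3b (-0.76, edgeR adjusted p = 6.14e-05), Dnmt3a (0.37, adjusted p = 0.00522), Tet2 (1.11, adjusted p = 0.0153), Dnmt3l (-1.39, adjusted p = 0.0165) and Tet3 (0.25, adjusted p = 0.0167). Dnmt3a, whose estimates were below 0 at the 3 earlier steps, was thus higher at day 7 than at day 6 in that fit. The block also added Tet3 at the step from day 4 to day 5 (0.30, adjusted p = 0.022), where it called 45.8% of all tested genes, and Tet2 from day 5 to day 6 (0.74, adjusted p = 0.0489), where it called 19.2%.

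Because Dnmt3a fell before Dnmt3b, the balance of the de novo genes moved in both directions. On the scale of CPM per kb, the ratio of Dnmt3b to Dnmt3a in untreated aggregates was 8.34 ± 0.72 at day 3, 14.6 ± 2.6 at day 4, 7.46 ± 1.23 at day 5, 5.60 ± 2.12 at day 6 and 2.21 ± 0.78 at day 7 (SD, n = 4). With XAV939 the same ratio was 7.81 ± 0.68, 17.1 ± 2.1, 7.55 ± 0.82, 3.53 ± 0.69 and 1.65 ± 0.57. Dnmt3b was the larger on average on each day, and made up 88.5% of the summed level of the 3 Dnmt3 genes at day 3 and 67.2% at day 7 untreated. The sum itself went from 469 ± 53 to 39.2 ± 4.3 CPM per kb untreated and from 484 ± 78 to 31.5 ± 2.1 CPM per kb with XAV939. Against Dnmt1 on the same scale, Dnmt3b was at a ratio of 7.02 ± 0.79 at day 3, 1.03 ± 0.41 at day 6 and 0.405 ± 0.127 at day 7 untreated, so the maintenance gene was the more abundant by day 7.

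The Tet genes changed places. Tet1 made up 84.0% ± 1.8 of the summed CPM per kb of the 3 Tet genes in untreated aggregates at day 3 and 30.3% ± 2.5 at day 7. Over the same days Tet3 went from 12.2% ± 2.8 to 50.5% ± 2.5 and Tet2 from 3.78% ± 1.25 to 19.2% ± 1.8. The means of Tet1 and Tet3 crossed between day 5, where their ratio was 1.53 ± 0.31, and day 6, where it was 0.705 ± 0.181. With XAV939 the shares at day 7 were 30.1% for Tet1, 49.0% for Tet3 and 20.9% for Tet2. The sum of the 3 went from 28.2 ± 4.3 to 20.6 ± 1.9 CPM per kb untreated, a far smaller change than that of the Dnmt3 sum.

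**Figure D3:**
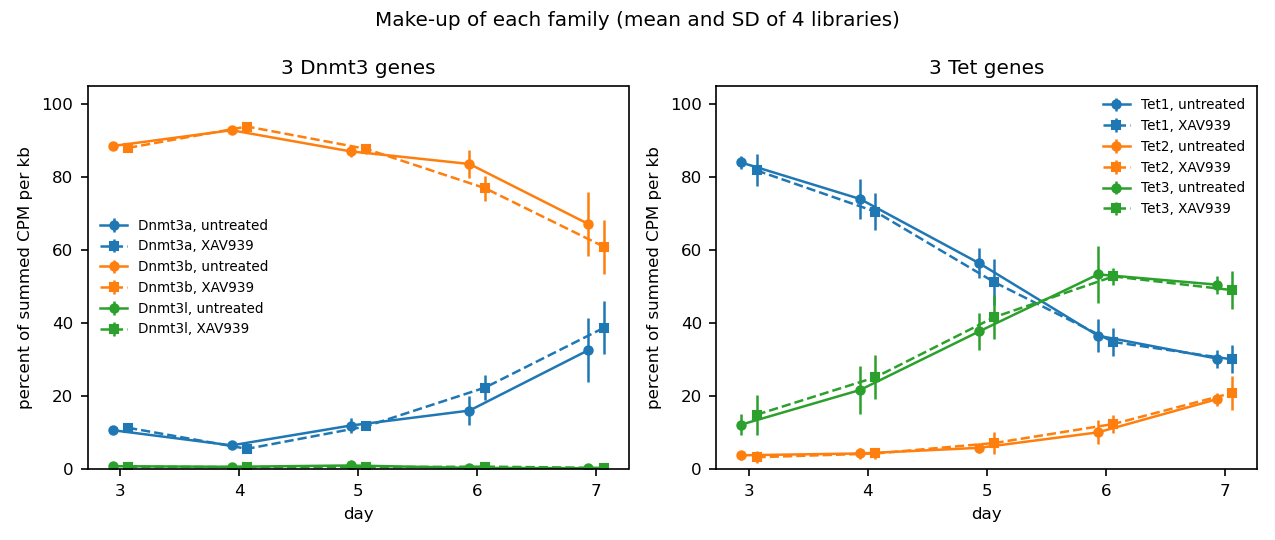
Percent of the summed CPM per kb of the Dnmt3 genes (left) and the Tet genes (right) that each gene made up on each day, as mean and SD of 4 libraries (circles and solid lines untreated, squares and dashed lines XAV939). Dnmt3b keeps the larger share of its family (67.2% at day 7 untreated), while Tet3 passes Tet1 between days 5 and 6.

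The comparison of the arms asks whether early inhibition with XAV939 altered these genes. None of the 8 was called at day 3, beside 0.00592% of all tested genes, at day 4 (0.0178%), at day 5 (2.34%), at day 6 (4.34%) or at day 7 (0.00592%). The test of the 5 days together called none of the 8 either, beside 5.8% of all genes. The test of whether the change from day 3 to day 7 differed between the arms called 0% of all tested genes, and of the 8 the largest estimate was that of Tet2, at 0.66 on the log2 scale (95% interval -0.49 to 1.80). That estimate was 0.27 without day 3 untreated library 2 and 1.18 without day 3 XAV939 library 2. At an unadjusted p under 0.05 edgeR gave 1 of the 8 at day 6 (Dnmt3b) and none on the other days. DESeq2 called 1 at day 6, beside 5.73% of all genes it tested.

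The 95% intervals of the fit without a block give the range of differences that this fit leaves possible. It does not use the pairing of same-numbered libraries of the 2 arms, so a blocked fit can give narrower ones. For Dnmt1, Uhrf1 and Dnmt3a the 95% interval of the log2 difference between arms lay between -0.69 and 0.56 on each of the 5 days, and for Tet1 and Tet3 between -0.75 and 0.71. The intervals of Dnmt3b lay between -1.27 and 0.69, and those of Tet2 between -1.28 and 1.23. For Dnmt3l the interval was wide, at -3.00 to 0.15 on day 5, and leaving out day 5 untreated library 2 moved that estimate from -1.42 to -0.41.

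Dnmt3b at day 6 came closest to a call. All 4 XAV939 libraries (124 to 169 CPM) lay below all 4 untreated libraries (194 to 352 CPM), a log2 difference of -0.76 (SE 0.25, edgeR adjusted p = 0.072). XAV939 libraries were below the untreated library of the same number in 4 of 4 pairs at day 6 and again at day 7, where the log2 difference was -0.46 (SE 0.25, adjusted p = 0.72). At days 3 and 5 they were below in 2 of 4. The highest untreated library of day 6 was library 2, and without it the difference was -0.52 (edgeR adjusted p = 0.289). Without day 6 untreated library 4 it was -0.84 and passed the test (adjusted p = 0.0479).

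Same-numbered libraries of the 2 arms deviated together on each day, so the number was also used as a block within each day. With the block the day 6 difference of Dnmt3b was -0.73 (edgeR adjusted p = 0.0319), a call, and DESeq2 without a block gave -0.76 (adjusted p = 0.0434). At day 7 a block in a fit of that day's 8 libraries gave -0.44 (edgeR adjusted p = 0.0304), where 4.45% of all tested genes were called. In such a fit of day 6 Dnmt3b was not called, and with the block within day over all libraries it was not called at day 7. The summed primed epiblast markers at day 6 were 104, 336, 482 and 148 CPM in untreated libraries 1 to 4 and 90.5, 117, 168 and 77.1 CPM with XAV939, lower in each of the 4 pairs. Streak and mesoderm markers were 291 to 523 CPM untreated and 130.1 to 235 CPM with XAV939, and neural progenitor markers 196 to 339 and 398 to 733 CPM. The untreated range of the neural progenitor sum at day 6 spanned that of day 3. The endoderm list, which does not stand for endoderm alone, summed to 766 to 1765 CPM untreated and 379 to 586 CPM with XAV939. The part of these cell types in the Dnmt3b difference was not tested.

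Other genes had all 4 pairs of a day on one side without a call. At day 6 Dnmt1, Uhrf1 and Tet3 were higher with XAV939 in 4 of 4 pairs and Dnmt3a was lower in 4 of 4, and at day 3 Dnmt3l was lower in 4 of 4. For Tet2, XAV939 libraries were lower in 4 of 4 pairs at day 3, with a log2 difference of -0.46 (SE 0.40, edgeR adjusted p = 1), and higher in 4 of 4 pairs at day 6, with 0.42 (SE 0.40, adjusted p = 0.668). Both estimates of Tet2 rested on single libraries. That of day 3 was -0.07 without day 3 untreated library 2, -0.98 without day 3 XAV939 library 2, and -0.27 and -0.26 without day 3 XAV939 library 1 and library 3. That of day 6 was 0.10 without day 6 untreated library 3. With the block within day, Tet2 was called at day 6 (0.63, adjusted p = 0.0469). The pair that holds day 6 untreated library 3 gave 1.91, and without that pair the blocked difference was 0.29 (adjusted p = 0.22). Day 6 thus had 2 calls among the 8 with the block, beside 10.2% of all tested genes, and 1 without that pair, beside 7.7%.

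**Figure D4:**
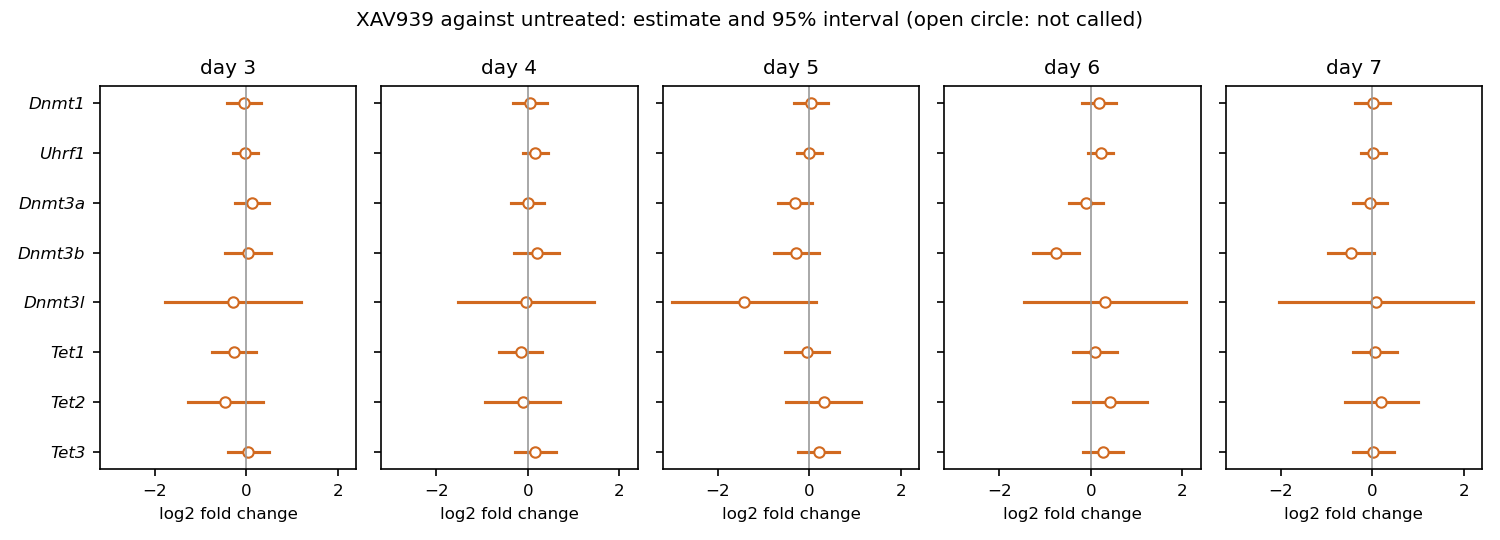
Log2 fold change of XAV939 against untreated aggregates (horizontal axis) for each of the 8 genes on each day, with the 95% interval of the edgeR fit and open circles for genes that were not called. No circle is filled, and the day 6 interval of Dnmt3b (-1.27 to -0.26) is the one that leaves out 0.

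The genes around these enzymes were followed in 8 lists, which are described by counts and medians beside the median of all tested genes from day 3 to day 7 (0.03 untreated and 0.04 with XAV939, log2). Each count is to be read against the shares of all tested genes called in that comparison, 34.7% higher and 32.6% lower untreated and 36.8% and 34.1% with XAV939. None of the genes of these lists was called between the arms on any day. Partners of maintenance methylation had 1 gene higher and 4 lower of 11 in untreated aggregates, and 1 and 5 with XAV939, with a median of -0.12 untreated. Usp7, a deubiquitinase that stabilises Dnmt1 and Uhrf1, fell from 592 ± 29 to 317 ± 34 CPM (log2 difference -0.90, SE 0.12, edgeR adjusted p = 6.56e-08), and Hdac1 fell by 0.53. Uhrf2, the paralog of Uhrf1, rose from 64.0 ± 10.5 to 156 ± 18 CPM (1.29, SE 0.18, adjusted p = 7.33e-08).

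S phase genes, with which Dnmt1 and Uhrf1 are known to be expressed, had 3 higher and 9 lower of 20 untreated, with a median of -0.23, and 2 higher and 15 lower with XAV939, with a median of -0.45. Ccne1, which drives entry into S phase, fell by 1.08 on the log2 scale, the chromatin assembly subunit Chaf1b by 0.69 and the replicative helicase subunit Mcm3 by 0.58 in untreated aggregates. The summed level of the 20 went from 5153 to 5905 CPM over the untreated libraries of day 3 to 4431 to 4716 CPM over those of day 7.

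Germline genes known to be silenced by promoter methylation fell furthest. Of 18 genes 16 were tested, and 15 fell in each arm, with a median log2 difference of -6.38 untreated and -5.93 with XAV939. A gene with enough counts in the libraries of 1 group passed the filter. The 18 summed to 279 ± 33 CPM at day 3 and 5.32 ± 1.09 CPM at day 7 untreated, so falls were the likelier outcome for the genes kept. The list was also chosen with earlier results of these data known. Sycp3, a protein of the meiotic chromosome axis, stood at 121 ± 3 CPM at day 3, 31.6 ± 11.6 at day 4, 8.98 ± 5.30 at day 5, 1.75 ± 0.78 at day 6 and 0.653 ± 0.200 at day 7 in untreated aggregates. Ddx4, a germ cell RNA helicase, went from 17.7 ± 3.6 to 0.255 ± 0.128 CPM, and Tdrd1, a piRNA pathway protein, from 6.94 ± 0.67 to 0.433 ± 0.172 CPM. With XAV939 the day 7 levels of the same genes were 0.896 ± 0.234, 0.346 ± 0.074 and 0.470 ± 0.080 CPM.

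These falls had begun by day 4. From day 3 to day 4, 12 of the 16 fell in untreated aggregates, beside 15.1% of all tested genes called lower, and 14 with XAV939, beside 17.7%, at the step where Dnmt3b passed no test and Dnmt3a fell. The step from day 4 to day 5 had 9 falls untreated, beside 8.17% of all tested genes, and 11 with XAV939, beside 15.2%. The filter and the choice of the list made falls likelier at these steps too, so the shares are no test of the list. The 1 gene that did not fall was Brdt, a testis bromodomain protein, at 1.13 ± 0.23 CPM at day 3 and 1.66 ± 0.36 CPM at day 7 untreated (log2 difference 0.55, edgeR adjusted p = 0.0596) and higher with XAV939 (0.62, adjusted p = 0.0344). In untreated aggregates the summed level of the germline genes was 279 ± 33 CPM at day 3, 75.8 ± 37.5 CPM at day 4 and 26.8 ± 18.8 CPM at day 5. The naive stem cell markers summed to 104 ± 36, 75.2 ± 42.1 and 50.8 ± 24.6 CPM on these days, and the primed epiblast markers to 2688 ± 202, 2808 ± 546 and 1548 ± 517 CPM. These sums do not measure the share of cells of a type. The part of either cell type, or of the Dnmt3 genes, in the germline falls was not tested.

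The list of writers of H3K36 and H3K9 methylation, marks that steer the Dnmt3 enzymes and Dnmt1, also holds Trim28 and Zfp57, which are not methyltransferases themselves. It had 6 of 10 higher and 0 lower in each arm, with a median of 0.37 untreated and 0.47 with XAV939. Nsd2, which writes H3K36 dimethylation, rose from 127 ± 9 to 569 ± 64 CPM (2.16, SE 0.18, edgeR adjusted p = 8.77e-13). The H3K9 methyltransferases Ehmt2 and Suv39h1 rose by 0.78 and 0.57 on the log2 scale. Readers of methylated CG had 4 higher and 1 lower of 8 in each arm, with medians of 0.21 and 0.42. Mbd1, a methyl-CG binding repressor, rose from 25.05 ± 3.604 to 50.1 ± 2.6 CPM untreated, and Zbtb38 fell from 23.2 ± 3.8 to 12.4 ± 0.7 CPM.

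On the side of demethylation, Tet cofactors and regulators had 4 higher and 2 lower of 8 untreated, and 4 and 3 with XAV939. Cxxc4, whose protein binds Tet2 and is known to lower its amount, rose from 2.66 ± 0.33 to 47.6 ± 6.6 CPM untreated (4.16, SE 0.26, edgeR adjusted p = 2.43e-15) and from 2.43 ± 0.13 to 48.0 ± 3.0 CPM with XAV939. The isocitrate dehydrogenases Idh2 and Idh1, which both make the Tet cosubstrate 2-oxoglutarate, rose by 1.27 and 0.87 on the log2 scale. Base excision genes had 3 higher and 5 lower of 13 in each arm, with the glycosylases Smug1 (1.18) and Neil3 (1.14) higher and Neil2 (-1.65) lower in untreated aggregates.

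Methyl donor metabolism had 1 higher and 6 lower of 13 untreated, with a median of -0.25, and 2 higher and 7 lower with XAV939, with a median of -0.49. Tdh, the threonine dehydrogenase that feeds one-carbon units in mouse stem cells, went from 34.0 ± 8.8 to 0.364 ± 0.239 CPM untreated (-6.53, SE 0.72, edgeR adjusted p = 9.72e-10). Gldc, of the glycine cleavage system, fell by 1.55 and Mthfd1, a folate enzyme, by 1.25 on the log2 scale.

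**Figure D5:**
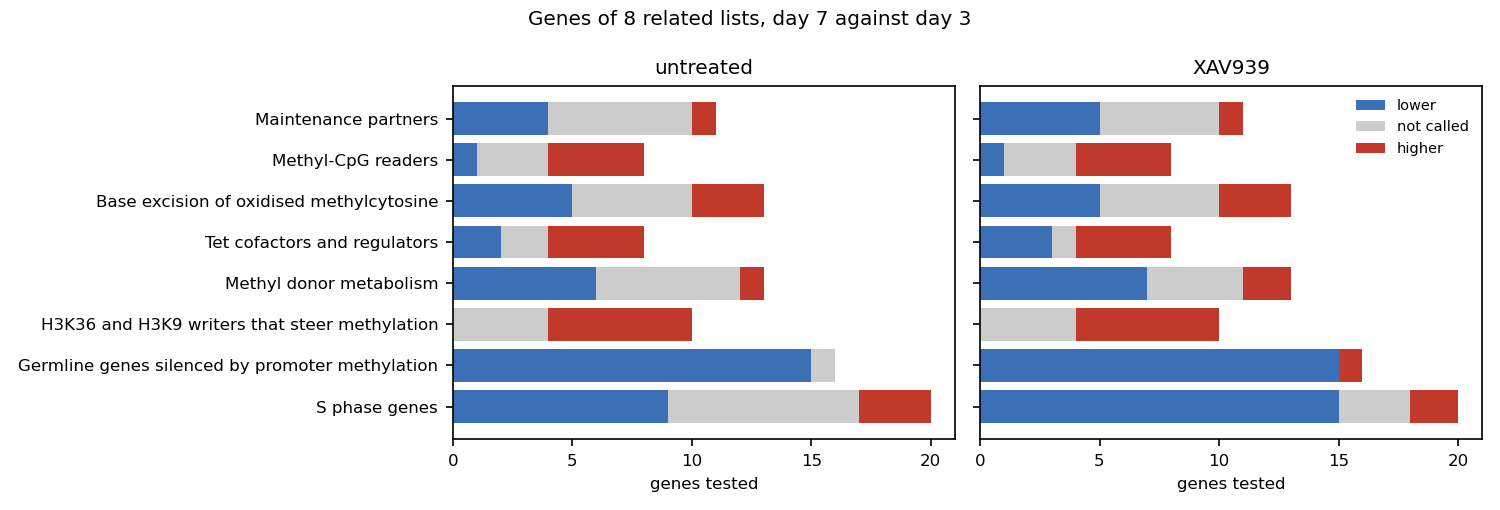
Number of tested genes (horizontal axis) of each of the 8 lists that were lower (blue), not called (grey) or higher (red) at day 7 than at day 3, in untreated (left) and XAV939 (right) aggregates. The bar of germline genes is almost wholly blue (15 of 16 in each arm). That of the H3K36 and H3K9 writers, a list that also holds Trim28 and Zfp57, has no blue.

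The genes with the most similar course were found by the Pearson correlation of log2 CPM over the 40 libraries, among the 10754 genes whose mean reached 5 CPM. The libraries share days, arms and RNA quality, so these values describe a likeness of course and nothing more. Klf9 (0.98), Rbpms2 (0.98) and Phc1 (0.98) were nearest to Dnmt3b, Acacb, Pml and Hsd17b11 (each 0.97) to Dnmt3a, and Thada (0.97), Diaph2 (0.96) and Bicral (0.96) to Tet1. Lncenc1 (0.97), Morc1 (0.96) and the naive stem cell marker Zfp42 (0.96) were nearest to Dnmt3l. Zmiz1 (0.95), Trim35 (0.94) and Xylt1 (0.94) were nearest to Tet3, and Cep55 (0.91), Ikzf2 (0.91) and Ppp1r9a (0.90) to Tet2. For Dnmt1 they were Cdc42bpb (0.94), Phf8 (0.91) and Hnrnpul1 (0.90), and for Uhrf1 Dpp9 (0.88), Fasn (0.88) and Nup188 (0.87). Among the 8 themselves, Dnmt3b correlated with Tet1 at 0.88, with Dnmt3a at 0.85 and with Dnmt3l at 0.85, and with Tet3 at -0.76.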

How the data were processed

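Poly(A) RNA of 40 libraries was sequenced from stranded TruSeq libraries on an Illumina instrument, per the labels' protocols. The authors deposited raw counts per gene as whole numbers, with no normalisation; bcl2fastq 2.20.0 and mm10 are named per the submitters' processing notes. No source used here gives the aligner, the counter or its strand setting. The main test was that of edgeR 4.0.16 (R 4.3.3, limma 3.58.1): genes kept by filterByExpr over the 10 groups (minimum count 10), trimmed means of M values, and 1 quasi-likelihood model with a mean per group and no block, with Benjamini-Hochberg adjustment over all 16878 genes tested in each of 17 comparisons, called under 0.05. No pair of libraries of 1 group was alike within sampling noise (smallest chi-square per gene 10.2). Exon lengths came from GENCODE (26857 identifiers matched, 49 not).

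The 8 genes and the lists were chosen with earlier results of these data known. Named besides the 8 genes were the 3 genes of each list with the smallest adjusted p from day 3 to day 7 untreated, Dnmt3c, and the 3 nearest genes by correlation; 1 gene that this rule names is not reported here. Brdt and Dnmt3bos were named after their values were seen. Epcam, Cldn6, Trim28 and Zfp57 are named only as members of lists. Replicate numbers come from the sample titles. Same-numbered libraries of the arms deviated together within a day in all 20 pairs (correlation over genes 0.145 to 0.523, highest for the own number in 19), as did XAV939 libraries of neighbouring days from day 4 on (0.119 to 0.635). Alternatives were relative log expression size factors, other filters, DESeq2 1.42.0, replicate blocks, fits of only the libraries compared, length and GC offsets, and each library left out. In data simulated for the arms at day 6, 75% of 2-fold and 98% of 4-fold changes were recovered and 4.42% of calls were false (16765 genes tested). These counts were drawn independently from the fitted model itself. Neither the likeness of same-numbered libraries nor the length effect of day 6 untreated library 3 was simulated. The shares thus check the procedure and do not give power or error in these libraries.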

Additional observations from a re-analysis of the deposited data

Results flagged for a closer look

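Among 80 groups of 4 libraries (8 genes in 10 groups), 3 held a library apart from its group by Dixon's 95% criterion, where chance gives about 4. In XAV939 library 4 of day 3, Uhrf1 was at 328.3 CPM against 383 to 388 CPM in the other 3. In untreated library 2 of day 6, Dnmt3b was at 352.4 CPM against 194 to 218 CPM. In untreated library 3 of day 6, Tet1 was at 25.5 CPM against 91.6 to 101.9 CPM, and this is the library in which long transcripts were under-represented.

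The XAV939 difference of Tet2 was -0.46 on the log2 scale at day 3 and 0.42 at day 6, with every pair lower on the first day and every pair higher on the second. The first was -0.98 without day 3 XAV939 library 2 and -0.07 without day 3 untreated library 2, and the second was 0.10 without day 6 untreated library 3. The difference between these days, tested after seeing the data, was 0.89 (SE 0.57, edgeR adjusted p = 0.593) without a block, where 0.308% of all tested genes were called. It was 1.16 (SE 0.28, adjusted p = 0.0287) when same-numbered libraries of a day formed a block, where 3.35% were called. With the pair of libraries 3 of day 6 left out of the blocked fit it was 0.81 (SE 0.18, adjusted p = 0.0221), beside 2.23% of all genes. The days were picked for their opposite signs in these data, so these p-values cannot be read as support for a change between them.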

How the results depend on the processing

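Of 52 fold changes followed, 31 were called. All 31 kept their direction in each alternative, and 25 kept the call in each planned one. The differences of Dnmt1 from day 3 to day 7 changed sign with length and GC offsets, to -0.31 untreated and -0.36 with XAV939. The numbers of the 8 genes called moved as follows. With a replicate block throughout, XAV939 against untreated at day 6 had 1 call, beside 6.46% of all tested genes. Day 7 against day 6 with XAV939 had 2, beside 10.5%. With the replicate block within day, day 6 between the arms had 2, beside 10.2%. With length and GC offsets as well, day 5 had 1, day 6 had 3 and the 5 days together had 3, beside 12.5%, 13.7% and 20% of all tested genes. With the block in a fit of only the libraries compared, the arms at day 7 had 1 call, beside 4.45% of all tested genes. Day 7 against day 6 with XAV939 had 5, beside 28.6%. Untreated day 6 against day 5 had 2, beside 9.77%, and untreated day 7 against day 6 had 1, beside 4.81%. At these untreated steps deviations of same-numbered libraries correlated at 0.141 to 0.439 for numbers 1, 2 and 4. For number 3 the correlations were -0.0566 and -0.00426. The fits of only the libraries compared without the block gave 2, 2 and 1 for these 3 steps, beside 7.33%, 9.71% and 2.88%. With no filter on low counts, day 7 against day 6 untreated and day 6 against day 5 with XAV939 had 1 each, beside 6.48% and 9.45%. DESeq2 gave 1 call at day 6 between the arms, beside 5.73%, and 1 for day 7 against day 6 with XAV939, beside 8.44%. Length and GC offsets alone also gave 1 for day 7 against day 6 with XAV939, beside 11.6%. Without both libraries that stood apart, day 7 against day 6 had 1 call untreated and 2 with XAV939, beside 6.71% and 10.1%. Leaving out 1 library at a time gave 0 to 1 calls between the arms at day 6, 2 to 4 and 1 to 3 for the last 2 untreated steps, and 3 to 4, 1 to 3 and 0 to 1 for the last 3 steps with XAV939. The block changed no other count by over 1.5 times. The cause of these changes was not tested. Counts of Dnmt3l were low at day 7, which limits its precision.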
